A study of Mus musculus with 8 samples.

Results

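The 10 genes described here act in the endoplasmic reticulum (ER) stress response and in oxidative protein folding: Ero1b, Hspa5, Ddit3, Atf4, Xbp1, Ern1, Eif2ak3, Herpud1, Trib3 and Pdia4. They were chosen by name, with earlier results of these data known, and all 10 were among the 17362 genes of the table. They were followed through the 24 endocrine columns, which hold beta, alpha, delta and pancreatic polypeptide (PP) cells in 6 conditions. Single nucleus RNA-seq had been performed on cultured mouse islets of wild type (WT) animals and of animals with the Med14 S983A knock-in, a serine to alanine change carried by all cells of the mouse in the scaffold subunit of Mediator. Islets of both genotypes were untreated (CON), treated with forskolin (FSK), a direct activator of adenylyl cyclase, or treated with Exendin-4 (Ex-4), a stable GLP-1 receptor agonist, at 10 nM for 16 h. The labels do not state the FSK dose used on islets, nor the age, sex or number of the animals. Nuclei of each condition were spread over 8 sublibraries and pooled into 1 column per condition and cell type, so there were no replicates and no test, and condition cannot be told apart from islet preparation.

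Beta cells make proinsulin in large amounts, and each molecule must be folded and given its disulfide bonds in the ER. ERO1 oxidases such as Ero1b pass oxidizing equivalents to protein disulfide isomerases such as Pdia4, while Hspa5 (BiP) is the main ER chaperone. When unfolded protein accumulates, the sensors Ern1 (IRE1) and Eif2ak3 (PERK) signal through Xbp1 splicing and through Atf4 translation, with Ddit3 (CHOP), Trib3 and the degradation factor Herpud1 among the downstream genes. The table counts nuclear RNA per gene, so Xbp1 splicing, Atf4 translation and the activity of the sensors were not measured.

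Levels are given as counts per 10000 counts of the column (CP10K), with the exact 95% Poisson interval of the count, which covers counting error only. A gene is said to be higher or lower where the ratio of 2 columns was at least 1.5-fold and the intervals did not overlap. Beta columns held 1915006 to 3094377 counts, alpha columns 269394 to 810127, delta columns 362410 to 631433 and PP columns 38625 to 127727. After a filter on low values, 10093 genes were kept in beta cells and all 10 members were among them. In alpha and delta cells 9487 and 9256 genes were kept, with every member except Trib3. Because a count depends on gene and transcript length, levels were compared between columns and not between genes. Med14 was detected in beta cells of every condition (0.384 to 0.753 CP10K), which does not check the genotype because a point mutation need not change the amount of RNA. The cell type labels were checked against summed markers. The 9 beta markers came to 45.8 to 64.5 CP10K in beta columns, against 12.5 to 33.8 in alpha, 5.47 to 12.4 in delta and 1.69 to 13.98 in PP columns. In PP columns the 2 PP markers that could be matched came to 11.7 to 30.8 CP10K, against 4.13 to 20.6 in alpha columns. In beta columns the 6 alpha markers summed to 1.09 to 4.36 CP10K, lowest in WT Ex-4 and highest in Med14 S983A FSK. Delta markers reached at most 0.324, endothelial markers 0.169, ductal markers 0.0623, immune markers 0.0266 and stromal markers 0.0260 CP10K there. Of 10 acinar markers 1 was matched, at 0.0388 to 0.140 CP10K, so acinar content could hardly be judged.

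A promoter was matched for all 10 members, and those of 3 are shown because they carry known response elements of this pathway. Each sequence gives the 250 bases before the RefSeq transcription start (GRCm38.p6), 5′ to 3′ in the sense of the gene, with the elements in capitals. The ER stress response element (ERSE, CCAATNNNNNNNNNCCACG) is bound by NF-Y and ATF6, the ERSE-II (ATTGGNCCACG) is a related element, and TTGCATCA is a core recognized by ATF4 with C/EBP partners.
Hspa5, chr2:34771840-34772089, plus strand: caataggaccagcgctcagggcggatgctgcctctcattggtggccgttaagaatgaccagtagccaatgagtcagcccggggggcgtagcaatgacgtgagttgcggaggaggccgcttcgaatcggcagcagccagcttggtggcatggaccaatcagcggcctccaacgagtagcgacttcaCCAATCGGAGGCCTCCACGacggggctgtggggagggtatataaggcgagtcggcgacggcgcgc
Ero1b, chr13:12565633-12565882, plus strand: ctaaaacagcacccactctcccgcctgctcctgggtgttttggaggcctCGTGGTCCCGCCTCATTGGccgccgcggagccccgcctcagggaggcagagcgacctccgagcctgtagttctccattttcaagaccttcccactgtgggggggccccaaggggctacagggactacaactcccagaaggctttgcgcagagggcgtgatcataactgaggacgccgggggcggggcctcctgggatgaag
Herpud1, chr8:94386179-94386428, plus strand: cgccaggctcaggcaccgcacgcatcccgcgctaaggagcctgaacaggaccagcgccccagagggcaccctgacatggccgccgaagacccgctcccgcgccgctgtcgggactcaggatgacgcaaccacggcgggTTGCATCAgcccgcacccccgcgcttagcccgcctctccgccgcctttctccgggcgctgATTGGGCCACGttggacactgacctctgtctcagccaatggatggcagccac
The Hspa5 promoter held an ERSE 65 to 47 bases before the start. The Ero1b promoter held one 201 to 183 bases before the start, on the opposite strand. In Herpud1 an ERSE-II lay 52 to 42 bases and TTGCATCA 112 to 105 bases before the start. Among 32851 promoter windows of 250 bases before to 50 after the start, both strands searched, the ERSE occurred in 39 (0.119%), the ERSE-II in 12 (0.0365%) and TTGCATCA in 294 (0.895%). Of the cAMP response element, only the letters TGACGTCA (588 windows, 1.79%) and the variant TGACGTGG (222 windows, 0.676%) were searched, and neither was found in any member. These are matches of letters, and binding was not measured in these nuclei.

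The oxidase Ero1b was the member with the widest range over conditions in beta cells. Ero1b lies on chromosome 13 at 12580716 to 12626285 (GRCm39, plus strand, 16 exons). In WT, Ero1b stood at 29.1 CP10K (28.5 to 29.7) untreated, 43.5 (42.8 to 44.3) with FSK and 19.6 (19.1 to 20.1) with Ex-4. Med14 S983A beta cells gave 11.9 (11.4 to 12.4) untreated, 37.2 (36.4 to 38.0) with FSK and 14.3 (13.8 to 14.9) with Ex-4. The order was thus WT FSK, Med14 S983A FSK, WT CON, WT Ex-4, Med14 S983A Ex-4 and Med14 S983A CON, and no 2 neighbouring intervals overlapped. Ero1b was 2.45-fold lower in Med14 S983A CON than in WT CON (log2 ratio -1.29). With FSK it was 3.13-fold higher than in CON in Med14 S983A beta cells (95% counting interval 2.99 to 3.28). In WT beta cells FSK gave a ratio of 1.495 (1.46 to 1.54) and Ex-4 a ratio of 0.672 (0.650 to 0.695), both just inside the 1.5-fold limit. Ex-4 in Med14 S983A beta cells gave 1.21 (1.14 to 1.28).

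The sensor Ern1, the kinase and endonuclease IRE1, was higher with FSK in both genotypes. It spans chromosome 11 at 106283818 to 106378686 (minus strand, 22 exons), and no annotated gene overlaps it. In WT it measured 3.26 CP10K (3.06 to 3.47) untreated, 6.50 (6.22 to 6.79) with FSK and 2.73 (2.55 to 2.92) with Ex-4. The Med14 S983A columns gave 2.06 (1.86 to 2.28) untreated, 6.67 (6.34 to 7.01) with FSK and 2.74 (2.51 to 2.98) with Ex-4. Both FSK columns stood above the other 4, and their intervals overlapped each other. Ern1 was 1.99-fold higher with FSK in WT (1.85 to 2.15) and 3.24-fold higher in Med14 S983A (2.90 to 3.62). Untreated, it was 1.58-fold lower in the mutant.

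The sensor Eif2ak3, the PERK kinase, moved less. WT cells held 1.33 CP10K untreated, 1.396 with FSK and 1.28 with Ex-4, with overlapping intervals. Mutant cells held 0.924, 1.55 and 0.930 CP10K in the same order, the FSK value apart from the other two. Only the FSK change in the mutant was called among the 5 comparisons, at 1.68-fold (1.401 to 2.02).

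**Figure D1:**
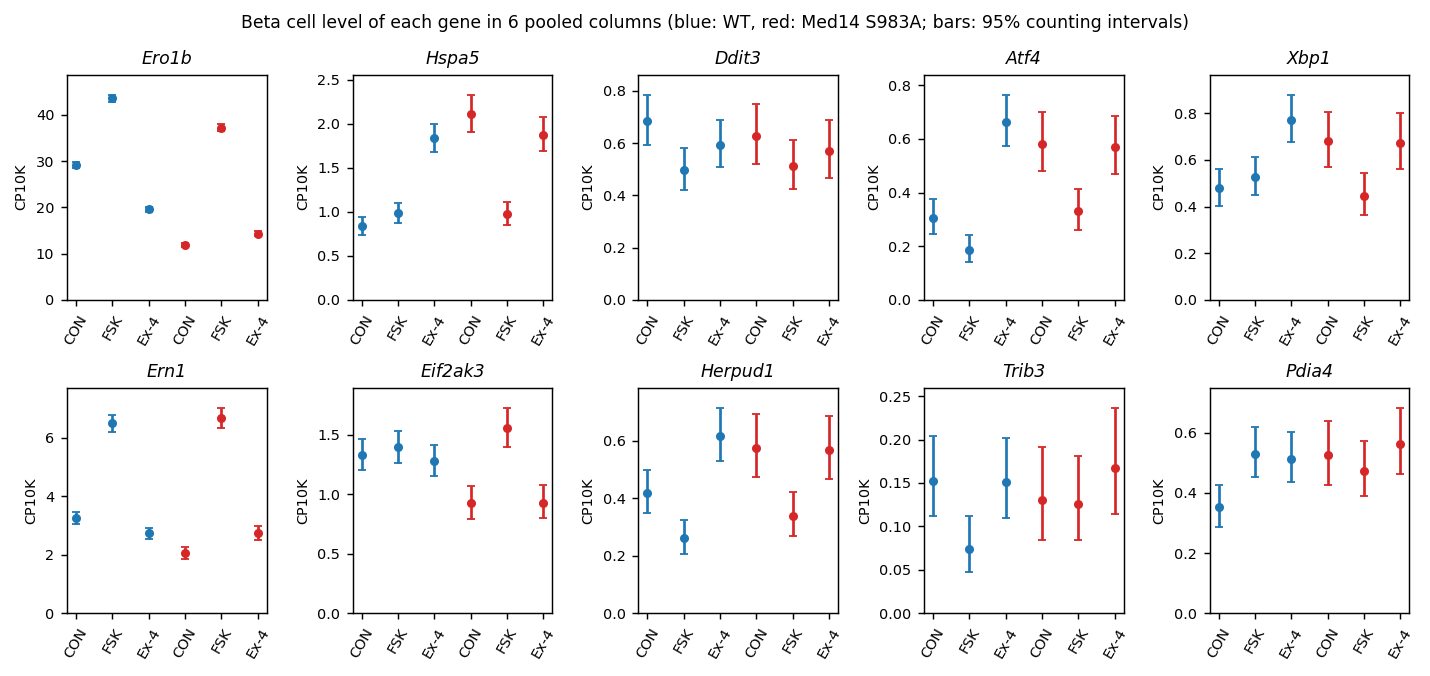
Level of each of the 10 genes in beta cells, in CP10K on axes that start at 0, for WT (blue) and Med14 S983A (red) columns, with 95% counting intervals as bars. Ero1b and Ern1 were highest in both FSK columns, while Hspa5 was at most 0.986 CP10K in WT CON and in both FSK columns and at least 1.83 CP10K in the other 3.

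The chaperone Hspa5 showed a different order of conditions. Its gene lies on chromosome 2 at 34661982 to 34668880 (plus strand, 8 exons) and overlaps Rabepk on the other strand. WT cells held 0.833 CP10K (0.733 to 0.943) untreated, 0.986 (0.878 to 1.103) with FSK and 1.83 (1.68 to 1.99) with Ex-4. Mutant cells held 2.11 (1.91 to 2.32) untreated, 0.977 (0.853 to 1.11) with FSK and 1.87 (1.69 to 2.08) with Ex-4. The columns fell into a lower and an upper set of 3, with overlapping intervals within each set and none between the sets. Hspa5 was 2.20-fold higher with Ex-4 in WT (1.89 to 2.56) and 2.53-fold higher in untreated mutant than in untreated WT cells (2.16 to 2.97). With FSK in the mutant it was 2.16-fold lower, whereas the ratio for Ex-4 there was 0.889 (0.769 to 1.03) and that for FSK in WT was 1.18 (0.998 to 1.404). None of its 3 calls held with the trend on gene length removed.

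The transcription factors Atf4, Xbp1 and Ddit3 had fewer counts, between 58 and 230 per beta column. Atf4 is the translationally controlled factor of the integrated stress response and, at 2.37 kb, the shortest member (chromosome 15, 80139372 to 80141745, 3 exons). Atf4 measured 0.305, 0.187 and 0.664 CP10K in untreated, FSK and Ex-4 cells of WT, and 0.582, 0.330 and 0.569 CP10K in those of the mutant. It was 2.17-fold higher with Ex-4 in WT, 1.63-fold lower with FSK in WT, 1.76-fold lower with FSK in the mutant and 1.90-fold higher in untreated mutant than in untreated WT cells, and each of these 4 directions turned when the trend on gene length was removed. Xbp1, the factor activated by IRE1, measured 0.478, 0.527 and 0.772 CP10K in WT and 0.680, 0.447 and 0.674 CP10K in the mutant, in the same order. Xbp1 was 1.61-fold higher with Ex-4 in WT and 1.52-fold lower with FSK in the mutant, and with the length trend removed the first call was lost (log2 ratio 0.039) and the latter direction turned. Ddit3 encodes CHOP, a factor of the terminal stress response. Its level ran from 0.498 CP10K in WT FSK to 0.684 CP10K in WT CON, and none of the 5 comparisons was called. Ddit3 overlaps 5 other annotated genes, Mars1 and Mbd6 on the other strand among them (strand use in counting was not stated).

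The remaining members act downstream or in folding. Herpud1, a membrane protein of ER-associated degradation, measured 0.418, 0.262 and 0.617 CP10K in WT and 0.576, 0.339 and 0.569 CP10K in the mutant. It was 1.60-fold lower with FSK in WT and 1.70-fold lower with FSK in the mutant, and both directions turned when the length trend was removed. The pseudokinase Trib3, an Atf4 and CHOP target, had 23 to 46 counts per beta column and was 2.05-fold lower with FSK in WT (0.0743 against 0.153 CP10K). The disulfide isomerase Pdia4 measured 0.352, 0.530 and 0.513 CP10K in WT and 0.525, 0.473 and 0.564 CP10K in the mutant. It was higher with FSK in WT at 1.51-fold (1.17 to 1.94), barely past the limit.

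Read as sets, the calls in beta cells were as follows. With Ex-4 in WT, 3 of 10 members were higher (Hspa5, Atf4 and Xbp1), beside 19.4% of all kept genes, and none was lower, beside 10.2%. With Ex-4 in the mutant, no member was called, beside 0.476% of genes higher and 0.971% lower. With FSK in WT, Ern1 and Pdia4 were higher (2 of 10, beside 6.05%) and Atf4, Herpud1 and Trib3 lower (3 of 10, beside 19.4%). FSK in the mutant gave the most calls, with Ero1b, Ern1 and Eif2ak3 higher (3 of 10, beside 17.8%) and Hspa5, Atf4, Xbp1 and Herpud1 lower (4 of 10, beside 21.9%). Between the untreated genotypes, Hspa5 and Atf4 were higher in the mutant (2 of 10, beside 16.9%) and Ero1b and Ern1 lower (2 of 10, beside 17.5%). A single gene is 10% of the set, so these shares are coarse and nothing particular to the set is read from them. The WT Ex-4, WT FSK and baseline comparisons share the WT CON column, and both mutant treatments are set against the mutant CON column that the baseline comparison also uses.

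The medians have to be read against the whole table, because the median gene itself shifted. The median log2 ratio of the members and of all kept genes was 0.26 and 0.16 for Ex-4 in WT, 0.10 and -0.31 for FSK in WT, and -0.22 and -0.14 for FSK in the mutant. They were -0.0033 and -0.037 after Ex-4 in the mutant, and 0.17 and 0.0012 between the untreated genotypes. Relative to the median gene, which stood at 0.804-fold with FSK in WT, the falls of Atf4, Herpud1 and Trib3 were no longer called and Ero1b was called higher. Relative to the median gene with Ex-4 in WT, Xbp1 was no longer called and Ero1b was called lower, and Xbp1 was also lost with FSK in the mutant. Centring moved the share of higher among all calls from 65.4% to 46.1% (49.1% with the length trend removed) when WT received Ex-4, from 23.7% to 59.8% (62.4%) when WT received FSK, and from 44.9% to 55.0% when the mutant received FSK. Leaving ribosomal RNA linked and mitochondrial genes out of the totals moved it from 49.1% to 61.9% between the untreated genotypes. The names listed for that set included Cdk8, Cmss1, Lars2 and Camk1d. The authors report Cdk8 as induced in the mutant, and Cmss1 and Lars2 as induced by Ex-4. Genes that differ between the conditions were thus among those listed to be left out.

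**Figure D2:**
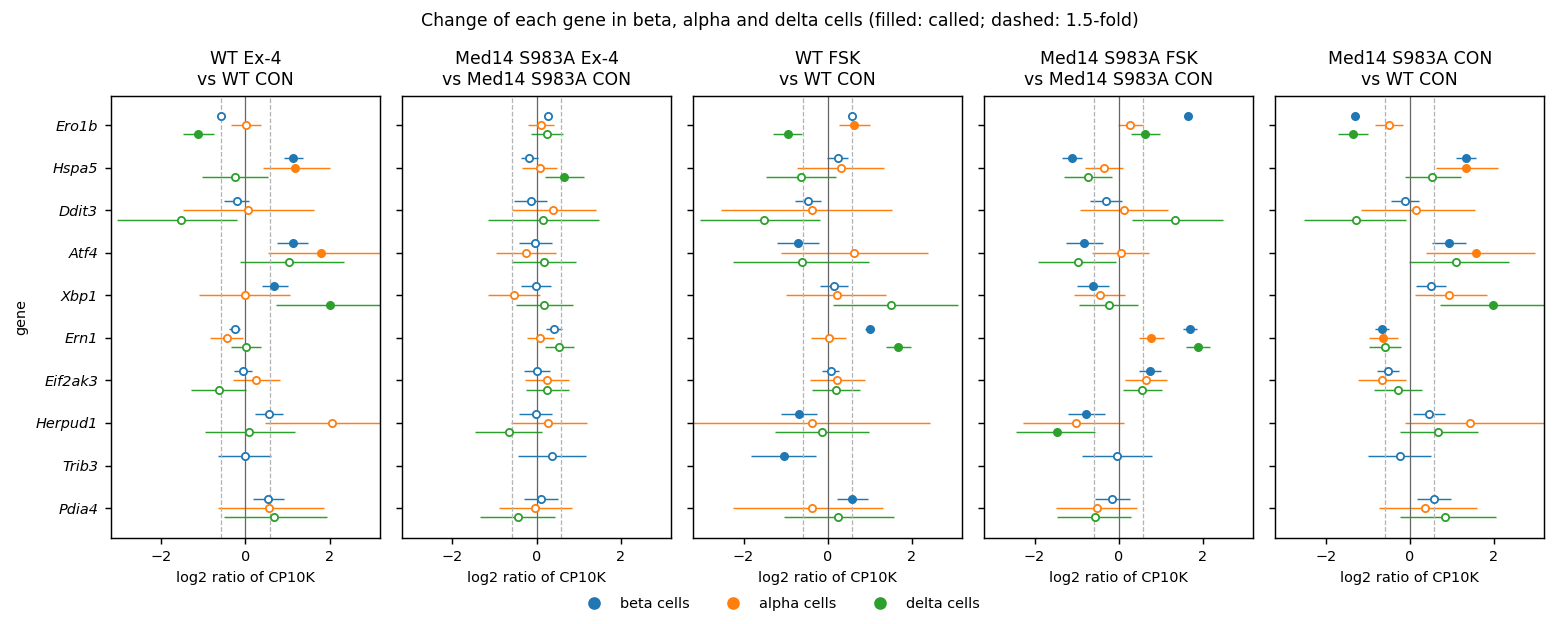
Log2 ratio of CP10K for each gene in the 5 comparisons, in beta (blue), alpha (orange) and delta cells (green), with 95% counting intervals cut off at the panel edges; filled points were called and dashed lines mark 1.5-fold. Ern1 was higher with FSK in beta and delta cells of both genotypes, and Ero1b was lower with FSK in WT delta cells (log2 ratio -0.95) and higher in WT alpha cells (0.64).

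Gene length moved with these results. The spans of the members ran from 2.37 kb for Atf4 through 6.9 kb for Hspa5, 7.9 kb for Ddit3, 10.1 kb for Herpud1, 12.4 kb for Xbp1, 12.6 kb for Trib3, 20.4 kb for Pdia4, 45.6 kb for Ero1b and 60.8 kb for Eif2ak3 to 94.9 kb for Ern1. Over the 10 members, the Spearman correlation of the log2 ratio with span was -0.73 for Ex-4 in WT, 0.85 for Ex-4 in the mutant, 0.55 for FSK in WT, 0.93 for FSK in the mutant and -0.78 for the untreated genotypes. These are descriptions of 10 genes measured in the same columns. All kept genes were then divided into 3 span classes of equal size, with 7 members in the short class (up to 22.4 kb), Ero1b in the middle class and Ern1 and Eif2ak3 in the long class (over 59.1 kb). With Ex-4 in the mutant the classes differed little, despite the 0.85 of the members. Their median log2 ratios were -0.073 (short), -0.039 (middle) and -0.0084 (long), against 0.68, 0.15 and -0.31 with Ex-4 in WT.

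In the short class, 39.5% of genes were higher with Ex-4 in WT and 33.8% were higher in the untreated mutant, so that the calls of Hspa5, Atf4 and Xbp1 stood among many of like length. With FSK, 28.7% of the short class were lower in WT and 37.8% in the mutant, the direction of Atf4 and Herpud1 in both genotypes. Ero1b was lower in the untreated mutant, as were 12% of the middle class, and higher with FSK in the mutant, as were 13.1%. For Ern1, 11.1% of the long class were higher with FSK in WT and 36.7% in the mutant, while 38.2% were lower in the untreated mutant. With a smooth trend on length removed from all ratios, Ern1 kept its calls with FSK (log2 ratio 1.07 in WT and 1.38 in the mutant) and lost that of the untreated genotypes (-0.27), and Ero1b kept those of FSK in the mutant (1.64) and of the untreated genotypes (-1.17). Ero1b was then also called lower with Ex-4 in WT (-0.62) and higher with FSK in WT (0.81). All 3 calls of Hspa5 were lost, at 0.22 with Ex-4 in WT, 0.46 between the untreated genotypes and -0.12 with FSK in the mutant, and with FSK in WT Hspa5 was called higher at 1.16. Ddit3 was called lower with Ex-4 in WT (-1.06) and in the untreated mutant (-0.93) on that scale, and higher with FSK in the mutant (0.64). Xbp1 was called higher with FSK in WT (0.84), and the call of Trib3 there was lost (-0.35). What length stands for in these nuclei was not tested.

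**Figure D3:**
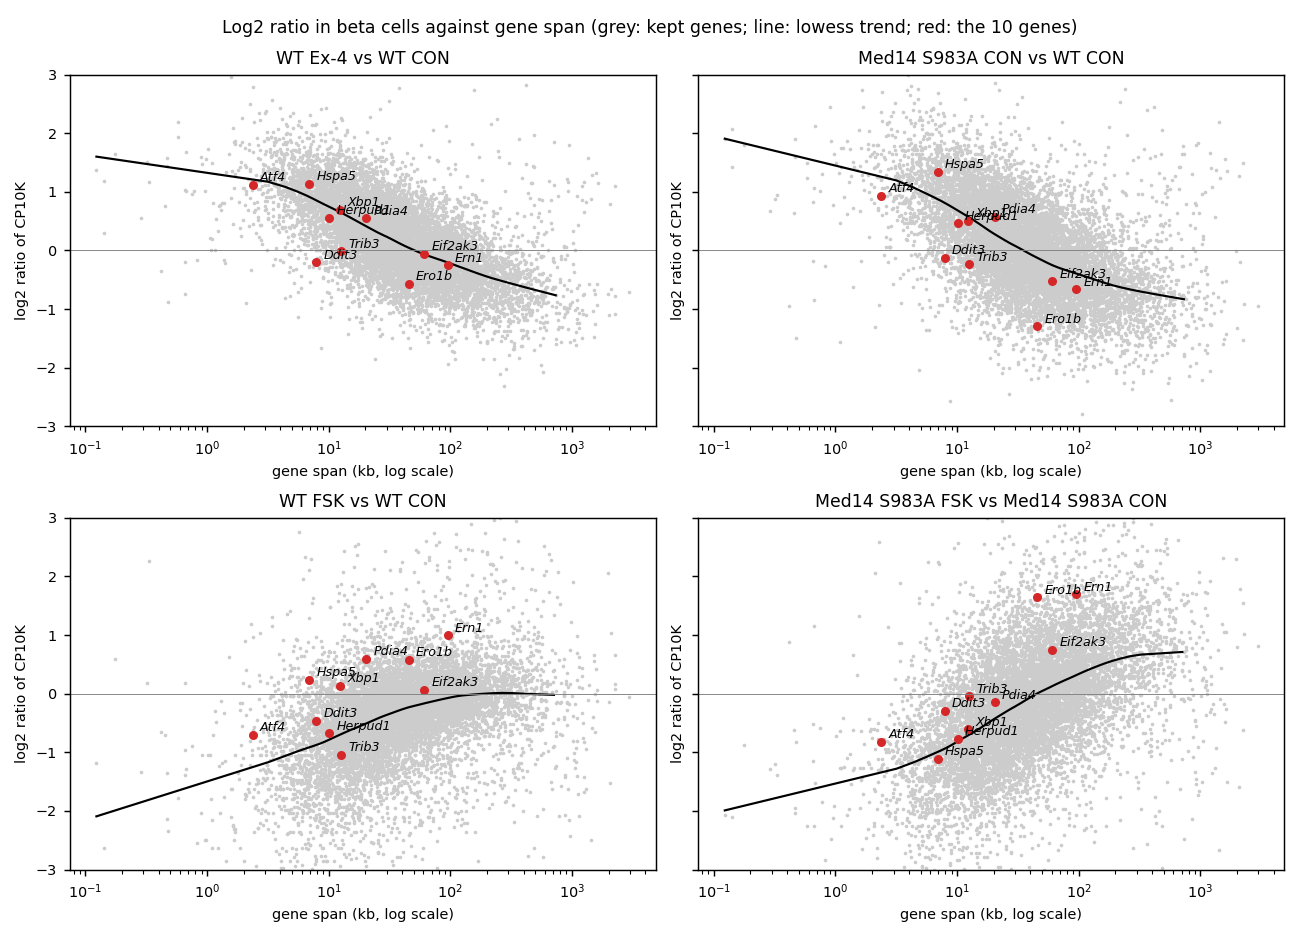
Log2 ratio of CP10K in beta cells against gene span on a log axis, for 4 comparisons, with all kept genes in grey, their lowess trend as a line and the 10 genes in red. The trend falls with span in the upper panels (Ex-4 in WT, untreated genotypes) and rises with span for both FSK comparisons, and Ero1b lies below the line in the upper panels and above it in the lower ones.

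Across endocrine cell types, Ero1b was highest in beta cells in every condition. Alpha columns held 3.05, 4.75 and 3.10 CP10K untreated, with FSK and with Ex-4 in WT, and 2.16, 2.62 and 2.32 CP10K in the mutant. Delta columns held 5.02, 2.596 and 2.32 CP10K in WT and 1.98, 3.07 and 2.33 CP10K in the mutant. As a share of the beta level in the same condition, Ero1b stood at 7.05 to 18.2% in alpha, 5.97 to 17.3% in delta and 4.95 to 31.8% in PP cells. The summed beta markers, which include Slc30a8, a gene that alpha cells also express, stood at 23.996 to 52.4%, 9.84 to 20.7% and 3.03 to 23.0% there, and in alpha and delta cells Ero1b was below that share in every condition. The median single marker stood at 9.40 to 15.1% in alpha and 3.98 to 21.6% in delta cells, lower than Ero1b in 5 of 6 alpha columns. In both cell types Ero1b thus lay within the range of single beta marker shares and below the summed share. Beta marker RNA was counted in the same columns, and the calls of Ero1b there carry that limit. They were higher with FSK in WT alpha cells and in mutant delta cells. In delta cells they were lower with FSK in WT, with Ex-4 in WT and in the untreated mutant. In delta cells the beta markers summed to 12.4 CP10K in WT CON, against 5.47 in WT FSK, 7.25 in WT Ex-4 and 8.67 in mutant CON, where Ero1b was also lower. The markers went the other way from Ero1b with FSK in mutant delta cells (8.67 to 7.43 CP10K) and in WT alpha cells (33.8 to 18.0 CP10K), where Ero1b was called higher. Beta cell Ero1b itself went from 11.9 to 37.2 CP10K with FSK in the mutant and from 29.1 to 43.5 in WT. As shares of the beta level, Ero1b went from 16.7 to 8.26% and the median marker from 18.9 to 8.25% in those delta cells. In those alpha cells Ero1b went from 10.5 to 10.9% and the median marker from 10.3 to 9.40%. The part of beta cell RNA in the Ero1b values was not tested.

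The level of Ern1 in delta cells was near or above that in beta cells. In delta cells it measured 3.26, 10.4 and 3.29 CP10K untreated, with FSK and with Ex-4 in WT, and 2.17, 7.998 and 3.17 CP10K in the mutant. These were 99.9 to 160% of the beta level, where the summed beta markers stood at 9.84 to 20.7%. The part of beta cell RNA in these Ern1 values was not tested. Ern1 was 3.204-fold higher with FSK in WT delta cells (2.61 to 3.96) and 3.68-fold higher in mutant delta cells (3.02 to 4.52). In alpha cells it measured 3.05, 3.12 and 2.24 CP10K in WT and 1.98, 3.38 and 2.10 CP10K in the mutant. There it was 1.71-fold higher with FSK in the mutant, a call lost with the length trend removed. In WT alpha cells the ratio was 1.02 (0.766 to 1.36). PP columns held 11 to 53 Ern1 counts and 2.66 to 5.74 CP10K, highest in Med14 S983A FSK.

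**Figure D4:**
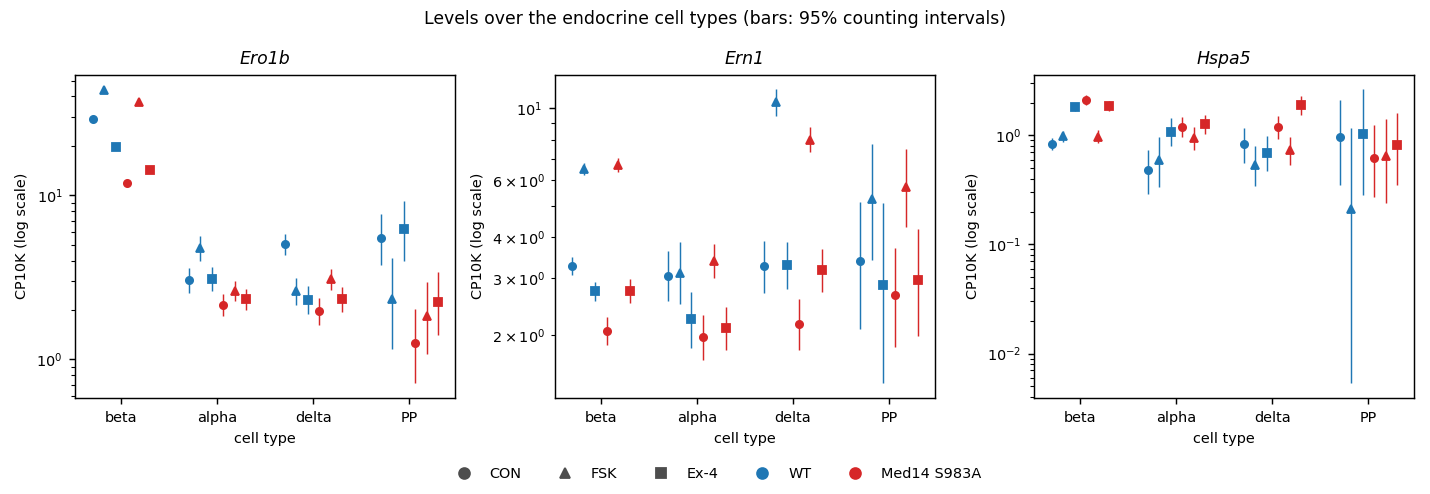
Levels of Ero1b, Ern1 and Hspa5 in CP10K on log axes, by endocrine cell type, for CON (circles), FSK (triangles) and Ex-4 (squares) in WT (blue) and Med14 S983A (red), with 95% counting intervals. Ero1b separates beta cells from the other types, whereas the FSK columns of Ern1 stand highest in beta and delta cells.

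The other members were seen at low counts outside beta cells. Hspa5 in alpha cells rose with Ex-4 in WT from 0.477 to 1.09 CP10K (2.28-fold, 20 and 49 counts) and was 2.51-fold higher in untreated mutant than in untreated WT cells. In delta cells it was called in 1 comparison, at 1.58-fold higher with Ex-4 in the mutant (1.201 to 1.90 CP10K). Atf4 in alpha cells was 3.45-fold higher with Ex-4 in WT and 2.96-fold higher in the untreated mutant, against only 7 counts in WT CON. With the length trend removed, no member was called in alpha cells in either of these comparisons. Xbp1 in delta cells was 4.06-fold higher with Ex-4 in WT and 3.95-fold higher in the untreated mutant, against 6 counts in WT CON. Herpud1 was 2.75-fold lower with FSK in mutant delta cells (15 against 37 counts). Trib3 had at most 3 counts in any alpha, delta or PP column, the floor used here, so no ratio is given.

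In alpha cells the members called were 2 of 9 with Ex-4 in WT (12.2% of all kept genes in either direction), 0 of 9 with Ex-4 in the mutant (0.791%), 1 of 9 with FSK in WT (4.57%), 1 of 9 with FSK in the mutant (13.4%) and 3 of 9 between the untreated genotypes (17.1%), the last including Ern1 at 1.55-fold lower. In delta cells they were 2 of 9 with Ex-4 in WT (10.1%), 1 of 9 with Ex-4 in the mutant (0.81%), 2 of 9 with FSK in WT (8.99%), 3 of 9 with FSK in the mutant (19.8%) and 2 of 9 between the untreated genotypes (15%). With so few counts, a change of 1.5-fold in the rarer members was not detectable at this depth.

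The wider pathway was followed in beta cells with 7 lists of 90 genes that hold none of the 10 members, of which 87 were matched and 78 kept. With Ex-4 in WT, 17 of 78 were higher and 4 lower, beside 19.4% and 10.2% of all kept genes, and their median log2 ratio was 0.083 beside 0.16 for all kept genes. The 3 largest were Ddit4, an inhibitor of mTORC1, at 3.14-fold, Ppp1r15a, the stress-induced phosphatase subunit that reverses eIF2α phosphorylation, at 3.03-fold and the ER protein Creld2 at 2.92-fold. The 3 smallest were Ero1a, the second ERO1 oxidase, at 1.83-fold lower, the thiol protein Erp44, which retains ERO1 enzymes in the ER, at 1.63-fold lower and Sil1, the nucleotide exchange factor of BiP, at 1.59-fold lower. Chaperones had 5 of 13 higher and 1 lower, the ATF6 branch 3 of 8 higher and 1 lower, and translocation 4 of 13, degradation 2 of 13 and the integrated stress response 2 of 11 higher with none lower, while of the 14 oxidative folding genes 1 was higher and 2 were lower and of the 6 IRE1 and XBP1 genes none was called. With the length trend removed, of these 6 named genes only Ero1a kept its call (-1.03). With Ex-4 in the mutant none of the 78 was called in either direction.

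With FSK in WT, 7 of the 78 were higher and 8 lower (6.05% and 19.4% of all kept genes), at a median of 0.098 beside -0.31 for all kept genes. The prolyl isomerase Ppib (1.84-fold), the ER protein Erp29 (1.83-fold) and the translocon-associated Ssr3 (1.77-fold) were the most raised. Nupr1 (4.37-fold lower, 8 counts in FSK), Sesn2 (2.61-fold lower) and Crebzf (2.09-fold lower) were the most reduced, the first pair being stress-induced genes under ATF4. With the length trend removed, the calls of Nupr1 (-1.24) and Crebzf (-0.061) were lost and those of the other 4 held. Of 14 oxidative folding genes 4 were higher and 1 lower, and of 11 integrated stress response genes none was higher and 3 were lower, at medians of 0.37 and -0.84. All kept genes up to 22.4 kb had a median of -0.71 there, with 28.7% of them lower.

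With FSK in the mutant, 18 were higher and 12 lower (17.8% and 21.9% of all kept genes), at a median of 0.26 beside -0.14. The cystine transporter Slc7a11 (3.06-fold, from 9 counts), Erp44 (2.96-fold) and the IRE1 and XBP1 target Dnajb9 (2.93-fold) were highest. The isomerase Fkbp2 (4.25-fold lower), the transcription factor Atf5 (3.44-fold lower) and Crebzf (2.11-fold lower) were lowest, and without the length trend Crebzf turned to 0.022 and the calls of Slc7a11 and Atf5 were lost. Between the untreated genotypes, 13 were higher and 10 lower in the mutant (16.9% and 17.5% of all kept genes), at a median of -0.11 beside 0.0012. Fkbp2 (3.2-fold), the transcription factor Bhlha15 (2.64-fold) and the ATF6 relative Atf6b (2.61-fold) were highest. Herpud2 (2.43-fold lower), Ero1a (2.16-fold lower) and Erp44 (2.00-fold lower) were lowest. By list, 5 of 13 chaperones were higher and 1 lower, 3 of 8 ATF6 branch genes higher and 2 lower, 2 of 13 degradation genes higher and 3 lower, 2 of 13 translocation genes higher and 1 lower, and 2 of 14 oxidative folding genes lower with none higher. Ero1a and Erp44 were thus the 2 oxidative folding genes called lower, beside 17.5% of all kept genes, and the other 12 were not called. Of the members in oxidative folding, Ero1b was lower and Pdia4, at a ratio of 1.49, was not called. With the length trend removed, Herpud2 (-1.17), Ero1a (-1.10) and Erp44 (-0.63) stayed lower on the log2 scale, and the calls of the short genes Fkbp2 (0.44), Bhlha15 (0.31) and Atf6b (0.58) were lost.

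**Figure D5:**
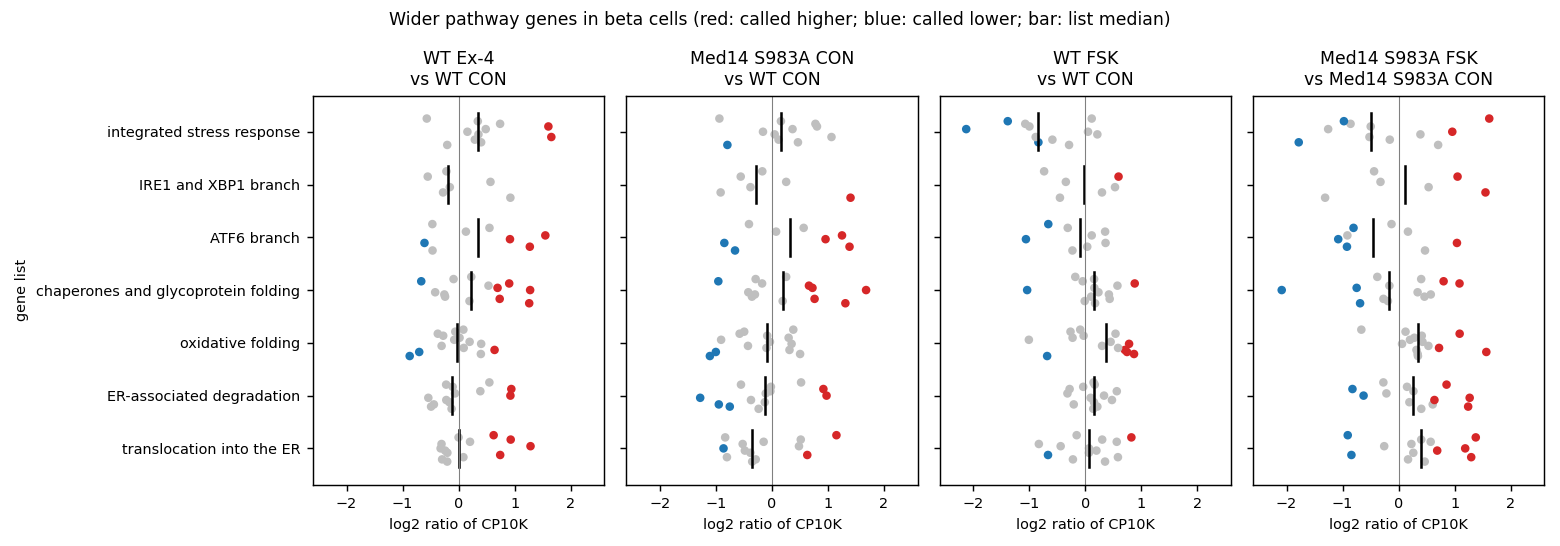
Log2 ratio of CP10K in beta cells for the kept genes of 7 wider pathway lists in 4 comparisons, each point a gene (red called higher, blue called lower, grey not called) and each bar a list median. With FSK in WT the integrated stress response list has its median at -0.84 and the oxidative folding list at 0.37. All kept genes have theirs at -0.31 there, and those up to 22.4 kb at -0.71.

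Over the 24 endocrine columns, the genes whose pattern of log2(CP10K + 1) was most like that of Ero1b among 4992 genes compared were Prlr (Pearson r = 0.983), Sgcz (0.978), Car10 (0.972), Ust (0.967) and Pcx (0.965). For Hspa5 they were Rsrp1 (0.868), Rundc3a (0.820), Safb (0.819), H2-K1 (0.817) and Ube2o (0.817). The columns share cell types and conditions, so these values describe likeness over 24 points that are not independent. The highest value for Hspa5 was thus lower than all 5 for Ero1b.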

How the data were processed

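Nuclei were profiled by the authors with combinatorial barcoding and reads were aligned to mm39. The authors deposited natural log values, ln(1 + 10000 × count / column total), in 54 columns (6 conditions by 9 cell types). Whether pooled counts were raw or corrected, the annotation release and the use of strand are not given in the sources used here. Whole counts were recovered from the deposited values (100% within 0.001 of a whole number). Column totals ran from 1522 to 3094377. Genes were kept at or above the 40th percentile of the mean deposited value among genes with a mean above 0, separately for each cell type. Calls needed a ratio of 1.5-fold and exact 95% Poisson intervals that did not overlap. Ratio intervals are exact binomial ones, conditional on the sum of both counts. The floor was 3 counts, and PP columns were given no calls. The members, lists and call rule were chosen with earlier results of these data known, and the gene span classes, the promoter motifs and the 13 ribosomal RNA linked and mitochondrial genes were chosen after the data were seen. Genes named were the 10 members, Med14, in each beta comparison the 3 called genes at either end of the log2 ratios of the wider lists, and the 5 genes most correlated with Ero1b and with Hspa5 among those kept in beta, alpha and delta cells with a beta mean at or above the median. Other names mark overlapping genes or genes listed to be left out of the totals, and Slc30a8 was chosen after its values were seen. Gene spans and positions came from GRCm39 (GENCODE M39), where 16593 of 17362 genes matched by name (of 2 entries named Ddit3 the longer was used), and promoters from RefSeq (GRCm38.p6). Alternatives were a difference of log2(CP10K + 1), a 2-fold limit, the fold alone, no filter, the median ratio set to 0, totals without the 13 genes, and a lowess trend on log10 span removed (span 0.3). The call rule and the trend removal were tested on simulated data. Counts were handled in Python 3.11.15 with pandas 2.3.3 and numpy 2.4.6, intervals were computed with scipy 1.17.1, lowess with statsmodels 0.14.6, and plots with matplotlib 3.10.9.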

Additional observations from a re-analysis of the deposited data

Results flagged for a closer look

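Some log2 ratios had opposite signs in 2 groups under the same treatment, each with counting intervals that did not overlap between treated and control columns. None of these differences was tested, because each group is 1 column. Ero1b in beta cells stood at -0.57 with Ex-4 in WT and at 0.27 with Ex-4 in Med14 S983A. Ern1 in beta cells stood at -0.26 and 0.41 in the same 2 comparisons. With the length trend removed, Ern1 stood at -0.050 and 0.43 there, and Ero1b at -0.62 and 0.30. Before that removal, none of these beta cell ratios with Ex-4 reached 1.5-fold. The Ex-4 columns of Ern1 were alike, at 2.73 CP10K in WT and 2.74 in the mutant, while the untreated columns were at 3.26 and 2.06. Ero1b in delta cells stood at -0.95 with FSK in WT and at 0.64 with FSK in the mutant, with 111 to 194 counts per column. With FSK in WT, Ero1b stood at 0.58 in beta cells and 0.64 in alpha cells, opposite to delta cells. In alpha and delta cells Ero1b lay within the range of single beta marker shares in the same columns and below the summed share. With FSK in WT it was above the median single marker (10.9 against 9.40% of the beta level in alpha and 5.97 against 3.98% in delta cells). The part of beta cell RNA in these values was not tested.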

How the results depend on the processing

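No paired analysis was possible because there was 1 pooled column per condition and cell type, and no replicate could be left out for the same reason. Comparisons are given in the order Ex-4 in WT, Ex-4 in the mutant, FSK in WT, FSK in the mutant and untreated mutant against WT. The members called were 3, 0, 5, 7 and 4 in beta, 2, 0, 1, 1 and 3 in alpha and 2, 1, 2, 3 and 2 in delta cells, and the wider pathway genes called in beta cells were 21, 0, 15, 30 and 23. With the difference of log2(CP10K + 1), which mutes low genes, they were 1, 0, 1, 3 and 2 in beta, 0, 0, 0, 0 and 0 in alpha, 1, 0, 2, 1 and 1 in delta cells, and 0, 0, 0, 4 and 1 wider genes. With a 2-fold limit they were 2, 0, 1, 3 and 2 in beta, 2, 0, 0, 0 and 2 in alpha, 2, 0, 1, 2 and 2 in delta cells, and 7, 0, 4, 15 and 9 wider genes. With the fold alone the beta counts stayed at 3, 0, 5, 7 and 4, alpha had 3, 0, 2, 3 and 6, delta 6, 2, 6, 6 and 6, and Ex-4 in the mutant called 2 wider genes. Without a filter on low values the beta counts also stayed, and Ex-4 in the mutant called 2 wider genes. With the median ratio set to 0, FSK in WT called 3 members in beta cells and 25 wider genes. With totals rescaled, Ex-4 in WT called 5 members in beta cells and Ex-4 in the mutant 2 in delta cells. Between the untreated genotypes 6 members were then called in beta cells, with Ern1 lost and Xbp1, Herpud1 and Pdia4 called higher. The call of Pdia4 with FSK in WT was lost. With the length trend removed they were 2, 0, 5, 4 and 2 in beta, 0, 0, 1, 0 and 0 in alpha, 3, 2, 3, 2 and 2 in delta cells, and Ex-4 in WT called 12 and FSK in WT 31 wider genes. Removing that trend reversed 7 called log2 ratios in beta cells. Atf4 became -0.12 with Ex-4 in WT, 0.55 with FSK in WT, 0.55 with FSK in the mutant and -0.36 between the untreated genotypes. Herpud1 became 0.11 with FSK in WT and 0.046 with FSK in the mutant, and Xbp1 became 0.10 with FSK in the mutant. No called direction of a member in beta cells reversed under the other alternatives. Depth limited alpha, delta and PP cells most, where 1 count equals up to 0.0371, 0.0276 and 0.259 CP10K.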
